A study of Sus scrofa with 8 samples.

Results

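The sites described here are CTCF binding sites of pig embryonic fibroblasts (PEFs) that lie between genes and carry neither of the active histone marks that were mapped in the same cells. A peak of CTCF replicate 1 on chromosomes 1 to 18 or X was a member when it overlapped a peak of CTCF replicate 2, overlapped no H3K4me3 or H3K27ac peak of either replicate, lay more than 2.5 kb from every annotated gene start, and had its summit (the base of highest signal) outside all annotated gene bodies. Of 39854 replicate 1 peaks on these chromosomes, 9860 met the rule, which is 24.7% of them. The cells were untreated fibroblasts taken, as labelled, at day 35 of gestation from fetuses of the Large White breed and cultured for 24 h, and the labels name no genetic change or treatment. ChIP-seq was made in 2 replicates each with antibodies to CTCF (Abclonal A1133), H3K4me3 (Abcam ab8580) and H3K27ac (Abcam ab4729). The labels do not say whether the replicates came from separate fetuses or cultures, so the spread between them may be technical, and the input libraries were not analysed here. In the study the peaks accompany chromosome contact maps of fibroblasts and embryos.

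CTCF is a zinc finger protein that binds a long, directional DNA motif. In current models the ring-shaped cohesin complex extrudes chromatin into loops and halts where it meets CTCF from one side, so that the direction of the motif matters, and the borders of topologically associating domains (TADs) often hold such sites. H3K4me3 marks active gene starts and H3K27ac marks active gene starts and enhancers. Sites between genes without either mark are therefore CTCF binding away from the elements those marks show, although other marks and other cell types were not measured.

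The sequences of a few members show what was bound. A motif of 19 bp was learned from 600 strong CTCF peaks that are not members, and its consensus reads TGGCCACTAGGGGGCGCTA. In the sequences here, read from the Sscrofa11.1 reference 5′ to 3′ on the motif's own strand, capitals mark the best match to that motif and lower case marks the 20 bases on either side. The first set holds members with some of the highest fold enrichment, each at an intergenic position named by the nearest gene start, and the last of the set is the member farthest from any gene start.
Site near PDHA1, chrX:15688624-15688682, minus strand: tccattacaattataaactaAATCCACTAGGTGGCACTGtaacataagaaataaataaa
Site near LOC100518052, chr1:245806159-245806217, minus strand: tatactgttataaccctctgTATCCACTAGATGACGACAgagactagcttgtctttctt
Site near BAALC, chr4:34029110-34029168, minus strand: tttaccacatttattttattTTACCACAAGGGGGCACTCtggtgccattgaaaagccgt
Site near SUN2, chr5:9257888-9257946, plus strand: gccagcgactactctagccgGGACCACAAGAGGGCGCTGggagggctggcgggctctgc
Site near PCDH9, chr11:40577638-40577696, minus strand: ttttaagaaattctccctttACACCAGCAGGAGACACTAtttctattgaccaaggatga

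The second set shows members that fall into families of related sequences, joined through chains of alignments, so that 2 members of a family need not align with each other along their whole length. The first pair belongs to the largest group of related sequences, the second pair to the next largest, the third pair to a group with the most members on chromosomes 3 and 6, and the last 3 lie in a single interval of chromosome X next to WWC3.
Family 1 near TDRD3, chr11:33169588-33169646, plus strand: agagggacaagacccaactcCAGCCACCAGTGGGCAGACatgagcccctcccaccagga
Family 1 near LOC110256468, chr13:188886125-188886183, plus strand: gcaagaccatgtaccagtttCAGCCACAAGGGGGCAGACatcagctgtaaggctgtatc
Family 2 near LOC110255829, chr11:48512684-48512742, plus strand: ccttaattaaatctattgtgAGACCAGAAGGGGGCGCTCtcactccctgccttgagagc
Family 2 near CATSPERB, chr7:113335444-113335502, plus strand: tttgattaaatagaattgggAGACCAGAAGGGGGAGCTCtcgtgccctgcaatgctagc
Family 3 near LOC110261712, chr7:55983934-55983992, plus strand: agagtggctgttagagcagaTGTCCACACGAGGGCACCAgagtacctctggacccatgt
Family 3 near COL9A2, chr6:96108523-96108581, plus strand: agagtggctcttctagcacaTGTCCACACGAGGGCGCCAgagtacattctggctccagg
Chromosome X family, chrX:6678060-6678118, minus strand: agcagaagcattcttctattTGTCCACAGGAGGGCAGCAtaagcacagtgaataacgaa
Chromosome X family, chrX:6730083-6730141, minus strand: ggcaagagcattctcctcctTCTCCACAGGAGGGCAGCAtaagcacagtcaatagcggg
Chromosome X family, chrX:6785384-6785442, plus strand: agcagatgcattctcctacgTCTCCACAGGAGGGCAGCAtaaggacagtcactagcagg

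Each condition of the rule removed a different part of the list. Of the 39854 peaks, 38239 overlapped a replicate 2 peak, 23895 of these overlapped no histone peak, 22511 of those lay more than 2.5 kb from a gene start, and 9860 had a summit between genes. The remaining 12651 unmarked distal sites lay inside gene bodies. Among all shared CTCF peaks, 22.3% and 23.1% overlapped H3K4me3 peaks of replicates 1 and 2, and 28.0% and 29.2% overlapped H3K27ac peaks. Peaks on both sides of the limit of 2.5 kb spanned a wide range. The 5 members just inside it lay 2501 to 2512 bp from a gene start, with replicate 1 fold enrichment of 3.72 to 46.7, and the 5 unmarked peaks just outside it lay at 2491 to 2499 bp with 5.27 to 32.1.

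The cells carried the marks of fibroblasts. All 13 of 13 fibroblast genes examined, among them COL1A1, VIM and PDGFRA, had H3K4me3 and H3K27ac peaks within 1 kb of their start in both replicates, against 1 of 12 genes of other cell types, which was APOA1. H3K4me3, counted by itself, was found in both replicates at 5 of those 12. The lists held 40289 and 44682 CTCF peaks, 37932 and 43516 H3K4me3 peaks and 74983 and 81164 H3K27ac peaks. They give no read counts, so the depth behind a single value is unknown and no counting interval can be given.

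Binding at the members was close in strength to that at unmarked CTCF sites inside genes and weaker than that at intergenic sites that carry a mark. Fold enrichment is the signal of the CTCF library at the summit over the control, as the authors' peak caller gave it. Its median over the 9860 members was 20.6 in replicate 1 and 22.7 in replicate 2, which is 21.7 ± 1.47 (SD, n = 2). The 12651 intragenic sites without marks had 20.8 ± 1.43, the 3871 intergenic sites with a mark 27.6 ± 3.58, and the 5912 sites near a gene start 20.2 ± 2.51. In both replicates the members lay above the intragenic sites and above the sites near gene starts, but by less than the larger of the SDs. The intergenic sites with a mark lay above the members by more than either SD. The 5945 intragenic sites with a mark, at 23.5 ± 2.84, lay above the members by less than the larger SD. Since peaks were chosen on calls in the same libraries, these levels are a description and were not tested.

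Single members varied far more than the classes did. Fold enrichment ran from 2.95 to 128 in replicate 1 and from 2.64 to 170 in replicate 2, with quartiles of 10.3 and 33.5 in replicate 1. The replicates ordered the members alike, with Spearman's rho of 0.938 over 9860 sites that share their libraries, and the summits lay a median of 16 bp apart. Replicate 2 gave values 1.08 times those of replicate 1 at the median member. For 130 members the replicate 2 peak was shared with another member, so their replicate 2 values are not separate. Sharing with replicate 1 peaks that are not members was not counted.

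**Figure D1:**
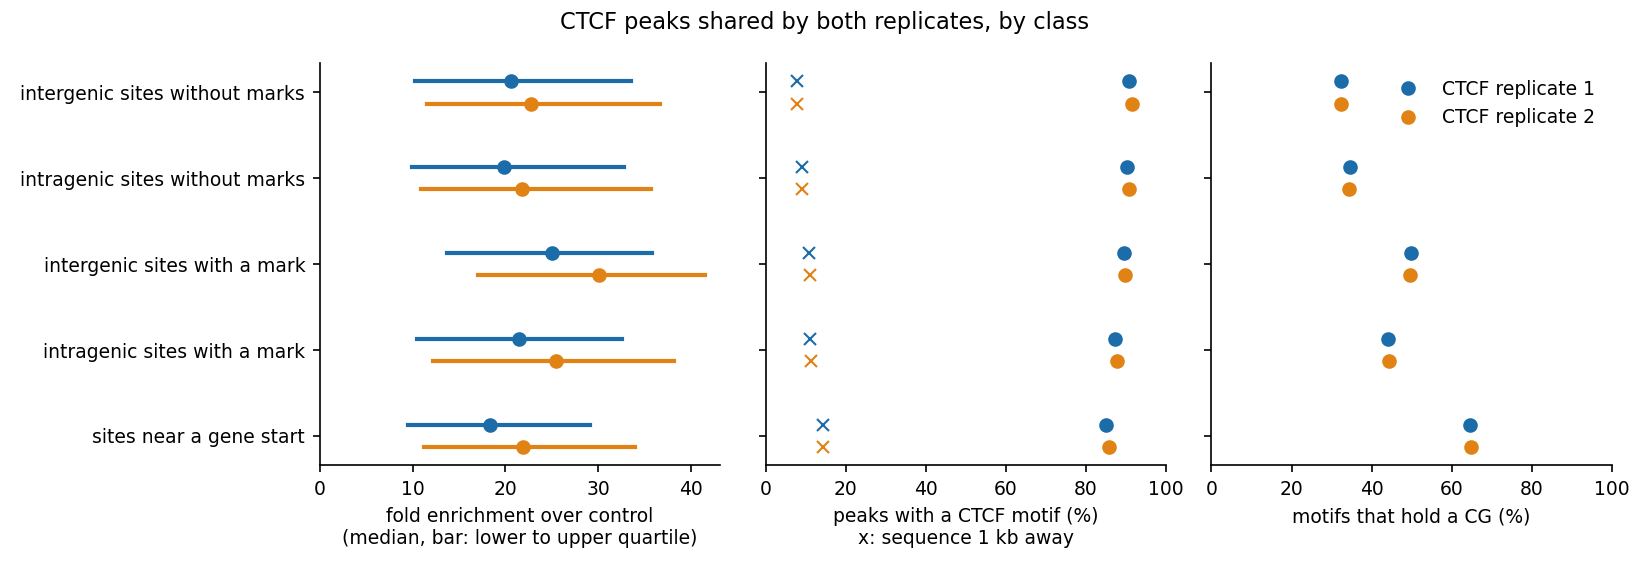
CTCF peaks shared by both replicates in 5 classes. The left panel gives the median fold enrichment over control with a bar from the lower to the upper quartile, the middle panel the share of peaks with a CTCF motif (circles) and of sequence 1 kb away (crosses), and the right panel the share of motifs that hold a CG, for replicates 1 (blue) and 2 (orange). The intergenic sites without marks have the lowest share of motifs with a CG, 32.4% in replicate 1.

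Nearly all members carried the CTCF motif. A match within 100 bp of the summit, at a chance of 0.0001 per position and strand, was found in 8943 members in replicate 1 (90.7%) and 9030 in replicate 2 (91.6%). The share was 87.9% over all CTCF peaks of replicate 1, without the 600 peaks used to learn the motif, and 86.7% over all peaks of replicate 2. Sequence 1 kb from the same summits held a match in 7.83% and 7.79%. The mean of 91.1% ± 0.62 (SD, n = 2) stood above 85.5% ± 0.55 at sites near gene starts by more than the spread between replicates, but the difference from 90.6% ± 0.29 at intragenic sites without marks was within it. Both replicates read the same sites, so this spread reflects where the peaks were placed and not the number of sites. With a stricter chance of 1e-05, 75.7% and 76.3% of members kept a match, against 70.5% and 67.8% of all peaks. Intragenic sites without marks were close to the members, at 75.2% and 75.5%. The lists of all peaks also hold peaks found in 1 replicate only, which the rule leaves out. Both replicates placed a motif at 8900 members, and at 787 members (7.98%) neither did.

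The motif lay at the point of strongest signal. Its centre was within 20 bp of the summit in 67.4% of the members that had one and within 50 bp in 94.6%. Forward and reverse motifs were about equal in number, 4517 and 4426. A single match was found in 8030 members and more than 1 in 913. Members with more than 1 match had median fold enrichment of 23.6 and 25.2 in replicates 1 and 2, close to the 21.9 and 24.3 of members with a single match.

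Stronger sites more often had a motif, and better motifs were bound more strongly. Among the members below the lower quartile of replicate 1 fold enrichment 78.9% had a motif, and the share was 90.3%, 96.1% and 97.4% in the following 3 quartile groups. Ordered by motif score, the quartile groups had median fold enrichment of 13.4, 18.8, 24.7 and 30.3 in replicate 1 and 15.4, 21.3, 27.1 and 31.6 in replicate 2. The 917 members without a motif in replicate 1 had medians of 9.23 and 9.85, against 22.1 and 24.4 for members with one. The score did not fix the level, since members of the lowest score group reached 123.

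The motifs of the members held few CG dinucleotides, the target of DNA methylation in mammals, which can hinder CTCF binding. In replicate 1, 32.4% of the member motifs held a CG, against 34.6% at intragenic sites without marks, 49.8% at intergenic sites with a mark and 64.7% near gene starts. Replicate 2, read at the same sites, gave 32.3%, 34.4%, 49.7% and 64.96%, so the differences between classes exceeded those between replicates. Within the motif the CG stood mostly at positions 15 and 16, counted from the 5′ end, in 23.7% of member motifs against 47.0% near gene starts. The other frequent place, positions 5 and 6, held a CG in 4.27% of member motifs and 23.1% of those near gene starts.

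The 201 bp around member summits had a median GC content of 46.8% and a ratio of observed to expected CG of 0.184 in replicate 1. Intragenic sites without marks had the same median GC content of 46.8% and a ratio of 0.202, and sites near gene starts had 58.2% and 0.521. Members whose motif held a CG had higher fold enrichment than those without, with medians of 25.7 against 20.6 in replicate 1 and 27.2 against 23.1 in replicate 2. The consensus itself holds a CG at positions 15 and 16. The share of motifs with a CG was 26.4% in the lowest quartile group of motif score and 43.3% in the highest. The part of motif score in the difference in fold enrichment was not tested. DNA methylation was not measured in these libraries, and its part in these values was not tested.

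The members lay at all distances from genes beyond the limit the rule sets. The summit was a median of 31.5 kb from the nearest gene start and 2045 members (20.7%) lay more than 100 kb away. The nearest start belonged to a protein-coding gene for 63.9% of members and to a lncRNA gene for 23.8%. Among all 28077 annotated genes these kinds made up 69.4% and 19.2%. The next CTCF peak of any class was a median of 15.4 kb away, against 15.7 kb for intragenic sites without marks and 10.2 kb for sites near gene starts, and 7.54% of members had none within 100 kb, against 4.92% and 2.06%.

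Fold enrichment declined with distance from gene starts. Members up to 10 kb from a start had medians of 23.9 and 25.8 in replicates 1 and 2, and those 10 to 50 kb away had 22.4 and 24.6. Members 50 to 200 kb away had 17.5 and 19.8, and those farther than 200 kb had 14.5 and 16.8. The share with a motif moved the same way, from 93.2% to 85.9% in replicate 1, and the median GC content from 48.8% to 42.3%. Whether base composition or the motif accounts for the decline was not tested.

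**Figure D2:**
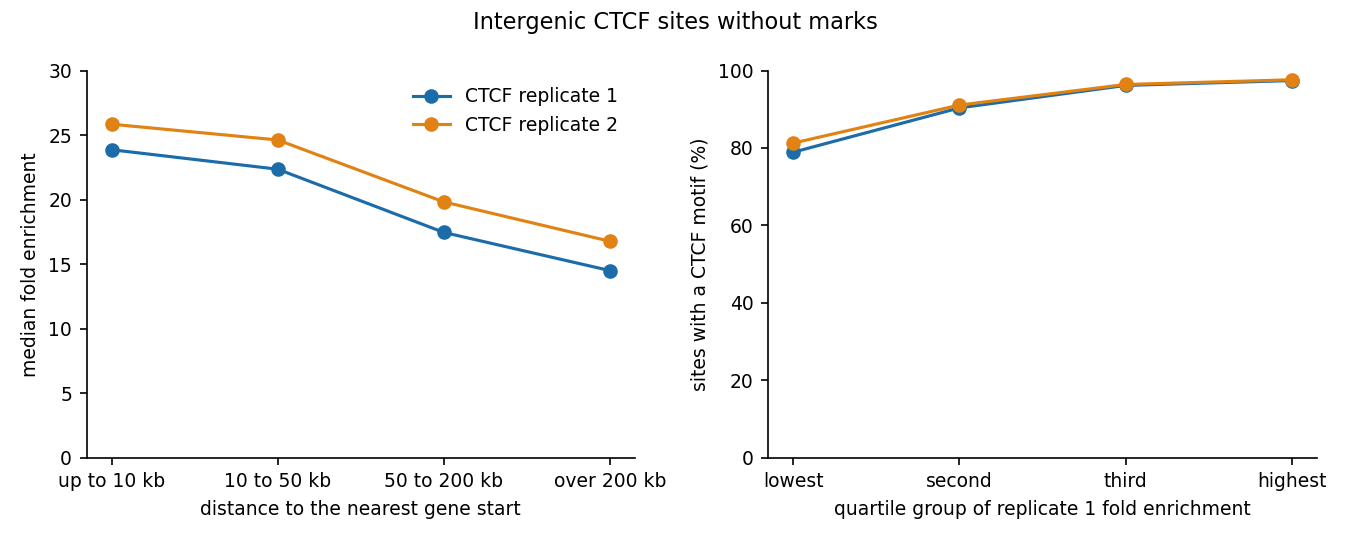
Median fold enrichment of the 9860 members by distance from the nearest gene start (left) and share of members with a CTCF motif by quartile group of replicate 1 fold enrichment (right), for both replicates. Fold enrichment falls from 23.9 to 14.5 in replicate 1, and the motif share climbs from 78.9% to 97.4%.

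Although no member overlapped a histone peak, many lay close to one. The nearest peak of either mark was a median of 11.7 kb away, the nearest H3K27ac peak 17.4 kb and the nearest H3K4me3 peak 18.8 kb. Within 1 kb of a marked region lay 676 members (6.86%), and 746 (7.57%) had no mark within 100 kb. Median fold enrichment was alike up to 100 kb from a mark, at 20.3 within 1 kb, 21.2 from 1 to 10 kb and 20.7 from 10 to 100 kb in replicate 1, and was 15.8 beyond. The motif share showed no such decline, at 88.9% within 1 kb and 91.8% beyond 100 kb.

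The strongest members lay on several chromosomes. The highest mean fold enrichment belonged to chrX:15688139-15689710, 11.3 kb from the start of PDHA1, which encodes a subunit of the mitochondrial pyruvate dehydrogenase, with 113 in replicate 1 and 170 in replicate 2. It lay 2.36 kb from an H3K27ac peak and 1.97 kb from an H3K4me3 peak. Next came chr1:245805816-245806612 near LOC100518052, with 128 and 120, and the order of these 2 sites therefore differed between the replicates.

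A site at chr8:47206554-47207378, between TMEM144 and LOC110261947, had 110 and 113 and lay 71.0 kb from the nearest mark. A site at chr18:32169549-32170638 lay 173 kb from the start of PPP1R3A, which encodes a muscle regulator of glycogen metabolism, and had 123 and 95.2. All 10 of the highest members had a motif, and none belonged to a family of related sequences. Both counts are near the shares of the highest quartile group of replicate 1 fold enrichment, where 97.4% had a motif and 4.58% belonged to a family.

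The site at chr5:9257464-9258274 lay between DNAL4 and SUN2, a gene of the nuclear envelope, with 78.6 and 121. The site at chr4:34028567-34029518 lay between BAALC and ATP6V1C1, a subunit gene of the vacuolar proton pump, with 94.6 and 112. Their motifs, printed with the first set of sequences, scored 22.4 and 22.9, in the highest quartile group. The site at chr1:62702917-62703751 reached 84.8 and 110 with a motif that scored 9.02, in the lowest quartile group.

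The most remote members ranged widely in strength. The member farthest from a gene start, chr11:40577310-40577956, lay 1123 kb from the start of PCDH9, a protocadherin gene of neural tissue, with fold enrichment of 20.2 and 32.5. In the same gene-poor interval chr11:40420053-40420574 had 9.892 and 18.997. The others of the 5 lay near FSTL5 (1104 kb, 18.6 and 25.9), LOC106508895 (949 kb, 6.40 and 6.33) and DPP10 (947 kb, 32.2 and 51.1). The member farthest from any mark, chrX:71017677-71018060, lay 1879 kb from the nearest H3K4me3 peak and had 7.44 and 7.90. Of the 5 members farthest from a mark 3 were on chromosome X, and the one near KIF2B on chromosome 12 had no motif and a GC content of 22.9%.

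The members were unevenly spread over the intergenic sequence. Between annotated genes lay 22207 intervals of 1052 Mb in all, and 5413 of these (24.4%) held a member, 3208 of them a single one. Intervals with members had a median length of 55.0 kb against 7.60 kb without. The distance that the rule demands from gene starts leaves little room for a member in short intervals. Its part in this contrast was not tested. Per Mb, intervals up to 20 kb held 13.2 members and those over 500 kb held 4.95. The members were 33.6% of the CTCF peaks in the shortest intervals and 79.4% in the longest. Peaks close to a gene start cannot be members, and the part of this limit in the rise was not tested either. Median fold enrichment in replicates 1 and 2 was 24.6 and 26.5 in the shortest intervals and 15.1 and 16.8 in the longest. The direction of the flanking genes made little difference, with 9.25 members per Mb between convergent genes, 9.21 between divergent genes and 9.48 between genes in tandem.

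Chromosomes differed by a little over a factor of 2 in density. Chromosome 17 held the most, with 390 members or 13.9 per intergenic Mb, followed by chromosome 14 with 12.02, and chromosome X held the fewest, with 408 members or 5.90. Chromosome X also had the lowest median fold enrichment, 15.1 in replicate 1 and 17.6 in replicate 2, against 23.3 and 24.9 on chromosome 5. The members were 14.7% of the CTCF peaks of chromosome 12, which had the most gene starts per Mb, and 33.8% of those of chromosome X.

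**Figure D3:**
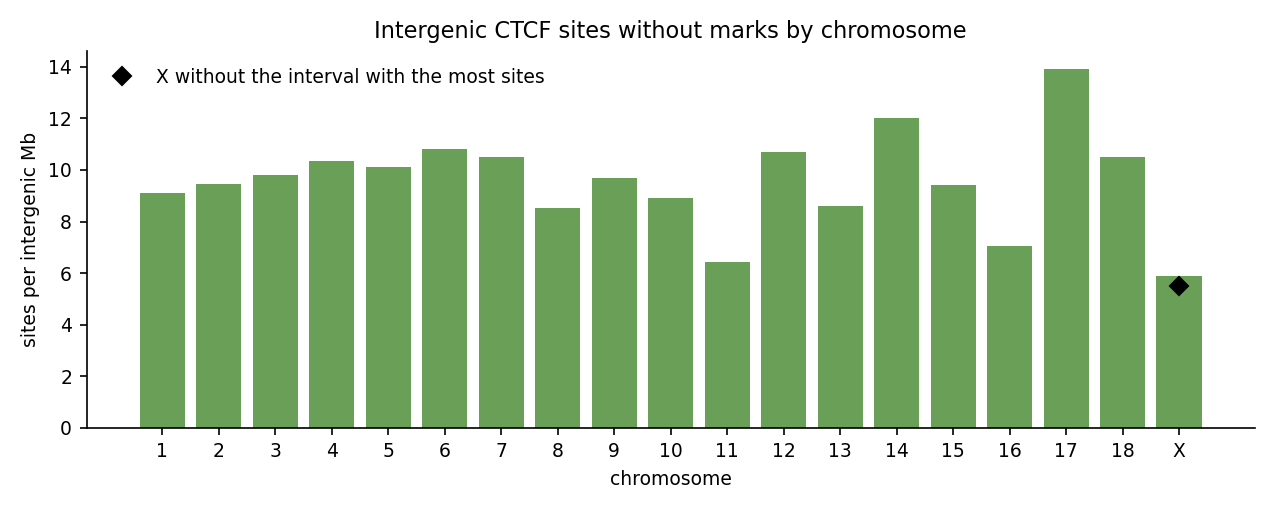
Members per Mb of intergenic sequence on each chromosome. The bars run from 5.90 on chromosome X to 13.9 on chromosome 17, and the diamond gives chromosome X without the interval that holds the most members, 5.49.

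The interval with the most members lay on chromosome X between LOC102167172 and WWC3, a gene of Hippo pathway regulation, at chrX:6460307-6815647. It held 30 members, which were all of its 30 CTCF peaks, at 84.4 per Mb, and they were also the longest run of consecutive CTCF peaks that were all members. Fold enrichment ran from 6.40 to 40.8 with a median of 11.3 in replicate 1 and from 8.18 to 42.0 with a median of 15.3 in replicate 2. The nearest mark to any of them was 22.4 kb away. A motif was found in 28 of them, 8 forward and 20 reverse, so most pointed in one direction. The median spacing between summits was 3.23 kb, with gaps from 0.928 to 97.3 kb.

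These sites were largely related in sequence. In 27 of the 30, the 201 bp around the summit belonged to a single family. Median identity was 82.9% between aligned pairs, but only alignments of at least 80% identity were kept, so less similar pairs do not enter it. The family held no replicate 1 CTCF peak of chromosomes 1 to 18 and X other than these 27 sites. The motif TGTCCACAGGAGGGCAGCA occurred in 10 of them, TCTCCACACGAGGGCAGCA in 7 and TCTCCACAGGAGGGCAGCA in 5. The authors kept only uniquely mapped fragments, and whether this lowers the values of related copies was not tested. Without this interval chromosome X held 5.49 members per intergenic Mb and its members had median fold enrichment of 15.7 in replicate 1, still the lowest of the chromosomes.

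**Figure D4:**
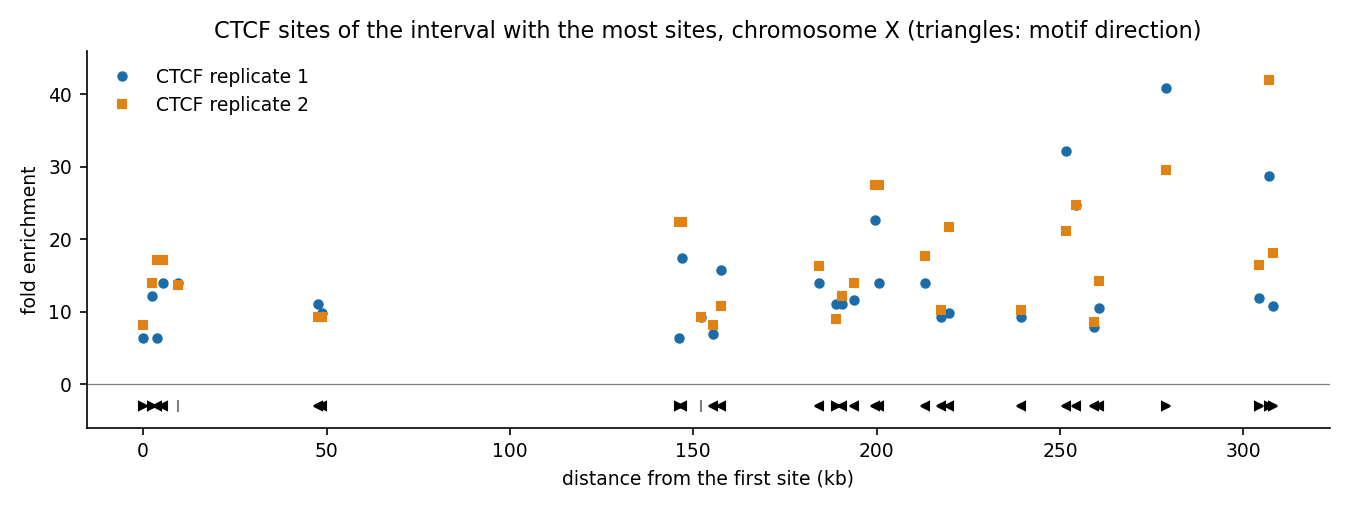
The 30 members of the interval between LOC102167172 and WWC3, by distance from the first summit (kb) and fold enrichment in both replicates. Triangles under the line give the direction of each motif, 8 forward and 20 reverse, and a tick marks the 2 sites without one; fold enrichment reaches 40.8 in replicate 1 and 42.0 in replicate 2.

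The other intervals with many members held fewer sites that are related in sequence, from none beside EPHA7 and ALX4 to 4 of 11 after PCDH9. The interval before MATN1, a cartilage matrix gene, held 13 members in 805 kb, which were all of its CTCF peaks, and the interval before EPHA7, an ephrin receptor gene, held 13 of 14 in 1675 kb. Median fold enrichment was 17.3 and 19.6 in the former and 27.5 and 29.3 in the latter. Beside ALX4, a homeobox gene of limb and skull development, 11 members in 261 kb had motifs, 2 forward and 9 reverse. The interval between CTNND2 and DNAH5 held 11 members in 1592 kb, that after PCDH9 11 in 2376 kb, and that between RAD51AP2 and FAM49A 10 in 641 kb. Of the 22207 intervals, 15 held 10 or more members.

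A list of 30 developmental genes, many of them known for long intergenic surroundings, was examined in the same way. In the intervals directly on either side of them, 21 of the 30 (70.0%) had a member, against 40.7% of all 28077 genes, and they held 99 members in all. The median length of the 2 intervals together was 179 kb for these genes, and the part of length in the difference was not tested. Per Mb of these intervals the median over the 30 genes was 8.91 members, against 9.37 per Mb over all intergenic sequence. DACH1 had the most, 14 in 1933 kb, with replicate 1 fold enrichment of 6.18 to 68.1. KCNJ2, a potassium channel gene, had 10 members, and SOX9, the regulator of cartilage formation, had 1 in its much shorter intervals.

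Among genes of the limb and skeleton, BMP2 had 10 members with replicate 1 values of 6.74 to 44.2, RUNX2 had 7 with 6.59 to 55.4, and LMX1B had 8 with 6.98 to 59.5. The limb and heart factor TBX5 had 7 with 8.40 to 38.2, and PAX3 had 6 with 5.84 to 47.8. The single member between TWIST1, a gene that fibroblasts express, and FERD3L was strong, at 77.0 and 83.6. Genes with none included BMP4, PITX1, MEIS1, GREM1, NR2F2, TSHZ1 and PRRX1. Their 2 intervals together measured from 2.38 kb at MEIS1 to 207 kb at BMP4, with 42.7 kb at TSHZ1 and 66.0 kb at PRRX1. Short intervals leave little room for a member under the rule. In the regions that the study displays, the members were 17 of 91 CTCF peaks at 4 to 7.5 Mb of chromosome 5 and 22 of 144 at 14 to 19 Mb of chromosome 3, and all of them had a motif.

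Part of the members were related in sequence to other CTCF sites. When windows of 201 bp with at least 80% identity over at least 100 bp were joined, 775 members (7.86%) fell into a family, against 4.82% of all replicate 1 CTCF peaks, 5.24% of intragenic sites without marks and 2.25% of sites near gene starts. At 90% identity the share of members was 2.79%, against 1.53% of intragenic sites without marks. These members had median fold enrichment of 13.7 and 15.6, against 21.2 and 23.6 for members of no family. Family membership became more frequent away from genes and marks, from 5.68% of members up to 10 kb from a gene start to 9.22% beyond 200 kb, and from 4.44% within 1 kb of a mark to 13.3% beyond 100 kb.

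The families differed in strength. The largest held 793 CTCF peaks, 318 of them members on 19 chromosomes, with medians of 9.89 and 10.98 and with 87.1% of member summits in soft-masked sequence, the lower-case part of the reference that marks repeats. Its most frequent motif was CAGCCACAAGGGGGCAGAC, in 25 of its members. The next held 189 peaks and 84 members, every one with a motif, most often AGACCAGAAGGGGGAGCTC, and medians of 21.8 and 24.4. The third held 100 peaks and 66 members, with TGTCCACACGAGGGCGCCA in 10 and medians of 26.9 and 24.2, above those of the members as a whole. A family of 14 peaks with 7 members had no motif in any of them, and their medians were 11.7 and 7.502. Over all members with a motif, 8237 of 8472 different motif sequences occurred once.

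Member summits lay in masked sequence more often than those near gene starts, and less often than sequence nearby. Of member summits, 11.3% in replicate 1 and 10.2% in replicate 2 were soft-masked, against 9.71% and 9.31% of all CTCF peaks, 10.4% and 9.07% of intragenic sites without marks, and 6.09% and 5.31% near gene starts. Among members with a motif, all 19 bp of the motif were masked in 5.19%, a stricter count than that of the summit base. Sequence 1 kb from the member summits was masked in 35.5% and 35.2%. At the same distance it was masked in 31.4% and 31.5% for intragenic sites without marks, and in 24.4% and 24.2% for sites near gene starts. The part of these surroundings in the differences between classes was not tested. The 1115 members with a masked summit had medians of 13.4 and 15.3, against 21.6 and 24.0 for the others, and 85.3% of them had a motif against 91.4%.

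Runs of consecutive CTCF peaks that are all members were counted. There were 4967 runs, and 72.4% of the members stood in a run of at least 2. The rule selects peaks by position, so neighbours in one interval can meet it together. Members were 33.6% of the CTCF peaks in intervals up to 20 kb, 58.2% at 20 to 100 kb and 79.4% over 500 kb. The part of the rule in the runs was not tested, and runs of other classes were not counted. The second longest run held 18 members over 1101 kb between PTPRU and MATN1, all with a motif, 11 forward and 7 reverse. A run of 14 members between LOC396566 and C8H4orf33 on chromosome 8 had 1 forward and 11 reverse motifs.

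The directions of neighbouring motifs changed with distance. Pairs of members with no CTCF peak between them and a motif in both pointed towards each other (convergent) in 21.4% of 3992 pairs in replicate 1 and 20.9% of 3704 pairs in replicate 2. Under 10 kb the convergent share was 14.6% and 14.4%, and at 50 to 200 kb it was 27.4% and 28.9%. At 200 kb or more it was 31.4% of 369 pairs and 28.7% of 279 pairs, so that only replicate 1 had a higher share there than at 50 to 200 kb. Divergent pairs made up 25.8% and 26.6% of the closest pairs, 27.5% and 28.5% of those 10 to 50 kb apart, and 17.3% and 18.3% of the farthest. Pairs on the same strand were the most frequent at every distance, at 59.6% and 59.0% under 10 kb and 51.2% and 53.0% at 200 kb or more. This class joins pairs of forward and pairs of reverse motifs, so it would lead even with directions drawn at random. For all neighbouring CTCF peaks under 10 kb it held 55.3% and 54.7%.

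Among all neighbouring CTCF peaks, members included, the convergent share was also lowest for the closest pairs. Their convergent share was 16.9% and 17.9% for pairs less than 10 kb apart, and 35.9% and 32.8% from 200 kb upwards. Under 10 kb the members' mean of 14.5% ± 0.15 (SD, n = 2) lay below the 17.4% ± 0.74 of all pairs by more than the spread between replicates. Both replicates read the members' motifs at the same sites. That spread therefore leaves out the uncertainty of counting 1124 and 1085 member pairs. At 200 kb or more, 30.1% ± 1.95 for members and 34.3% ± 2.15 for all pairs also differed by more than either SD, but on few member pairs. Contacts between the sites were not analysed here.

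**Figure D5:**
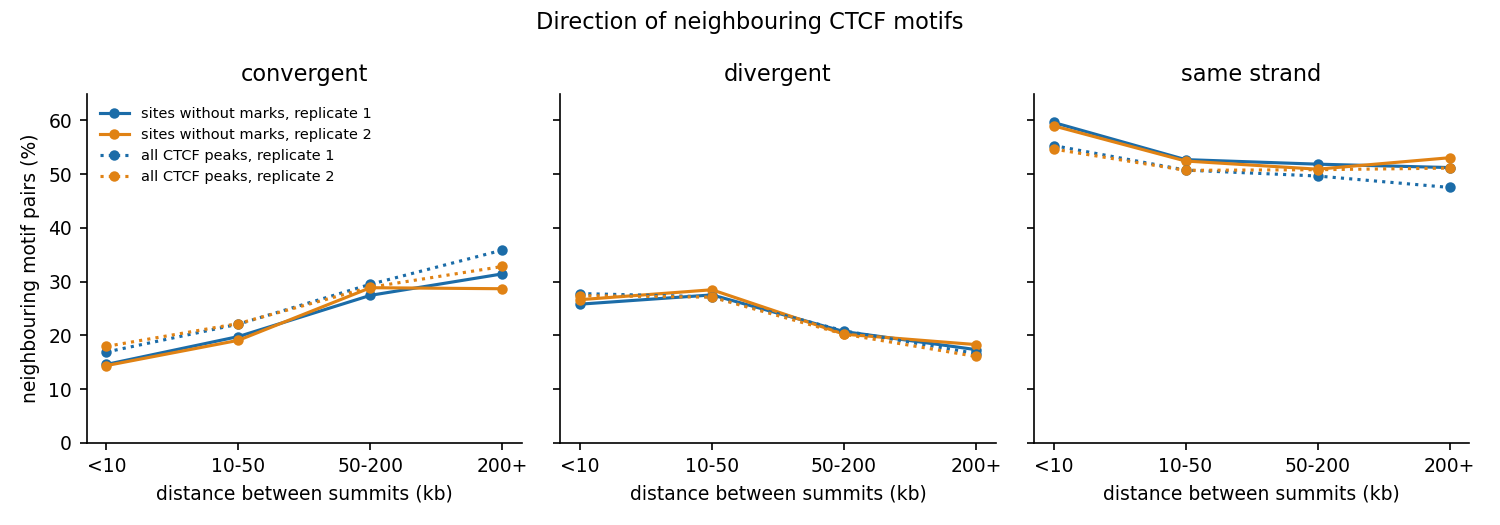
Share of convergent, divergent and same-strand pairs among neighbouring CTCF motifs by the distance between their summits, for neighbouring members (solid) and all neighbouring CTCF peaks (dotted) in both replicates. The convergent share of members climbs in replicate 1 from 14.6% for the closest pairs to 31.4% for the farthest.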

How the data were processed

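Per the methods of the study, the authors aligned the ChIP-seq libraries with Bowtie2, discarded fragments that did not map uniquely as well as duplicates, and called narrow peaks with MACS2. The genome build is Sscrofa11.1. The deposited peak lists give fold enrichment over control (a ratio), −log10 p and −log10 q values and a score. The authors state a q-value limit of 0.01, but the deposited lists hold up to 3.06% of peaks above it, and they were used whole. Depth per library is not in the lists.

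Members were found with 1 bp as the minimum overlap and gene starts and bodies from RefSeq (28077 genes), the distance to starts being measured from the nearer peak edge. The motif was learned by expectation maximisation on odd-numbered autosomes, and families came from BLAST 2.17.0. Interval, motif and orientation code was tested on simulated data. Python 3.11.15, pandas 2.3.3 and samtools 1.23.1 were used. No tests across sites were run, and values were set beside the spread between 2 replicates.

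Named sites were the 10 members of highest mean fold enrichment, the 10 intervals with the most members, the 5 members farthest from gene starts and from marks, the longest run, and the sites nearest the distance limit. A few of these sites and listed genes are not reported here. The members, gene lists and comparisons were chosen with earlier results of these data known, and the families and individually named copies after their values were seen. Alternatives changed the q limit, overlap, gene set, distances, starting replicate, library set and motif settings.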

Additional observations from a re-analysis of the deposited data

Results flagged for a closer look

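Some CTCF peaks met only part of the rule. On unplaced scaffolds and chromosome Y, which the rule leaves out, 252 replicate 1 peaks overlapped a replicate 2 peak and no histone peak. A further 1536 replicate 2 peaks had no partner in replicate 1 but met the other conditions, with median fold enrichment of 5.37 and a motif in 73.6%, and 470 replicate 1 peaks without a partner had 5.27 and 61.1%. Both unpaired sets are weaker than the members in the same replicate.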

How the results depend on the processing

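The number of members stayed within 1.5 times 9860 in each alternative, from 9161 with a limit of 5 kb to 12005 with protein-coding genes only, and was 9988 to 11229 when single libraries were left out. Leaving out single libraries gave median fold enrichment of 18.5 to 21.8, motif shares of 89.1% to 91.2%, masked shares of 10.7% to 11.8%, convergent shares of 21.1% to 21.7% and median gene start distances of 31.3 to 33.2 kb. The lowest fold enrichment and motif share and the highest count came without CTCF replicate 1. A mean in place of the median gave a fold enrichment of 24.9. The motif share was 76.0% at p 1e-05 and 85.9% within 50 bp. Counting masking of the whole motif among members with one, in place of the summit base, gave 5.19%. The convergent share was 20.7% with the 5 kb limit and 20.4% at the stricter motif p. The median distance to a gene start was 30.8 kb and 31.5 kb with −log10 q of at least 5 and 2, 31.5 kb with 50% overlap, 35.8 kb with the 5 kb limit, 29.1 kb for protein-coding genes only, 31.9 kb with whole peaks outside genes, 32.2 kb without marks within 1 kb and 31.7 kb starting from replicate 2. Chosen after seeing the data, measuring from the summit gave 9968 members and 31.0 kb, leaving out the chromosome X interval gave 31.5 kb, and families at 90% identity held 2.79% of members. No paired analysis was possible because the results come from no test between groups. The lists give no read counts, so what depth limits could not be measured, and weak sites absent from 1 replicate are left out by the rule.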
